A study of Mus musculus with 6 samples.

Results

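In mouse dendritic cells raised from bone marrow and exposed for 12 hours to calcium hydroxide (Ca(OH)2) nanoparticles, transcripts of tissue factor, coagulation factor X and the protein C receptor were higher than in cells given vehicle, and the urokinase transcript was lower. These transcripts belong to a set of 8 genes of blood coagulation and plasminogen activation, picked by gene name out of the 23398 genes in the deposited table: F3, F10, F13a1, Plau, Plaur, Thbs1, Thbd and Procr. All 8 were present in the table, each once. The study has 6 RNA sequencing libraries, 3 from vehicle cells and 3 from nanoparticle cells. All come from unsorted cultures labelled as bone marrow dendritic cells and grown in DMEM with serum. Mouse strain, age and the growth factors used are not given in the sources used here. The labels do not say whether the libraries of a group came from separate animals or cultures, so p-values measure the spread between these libraries, which may be technical.

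Coagulation starts when tissue factor, the product of F3, meets factor VII on a membrane that exposes acidic phospholipid. The pair activates factor X, factor X with factor V makes thrombin, and thrombin cuts fibrinogen into fibrin, which factor XIII cross-links. Thrombomodulin and the protein C receptor turn thrombin towards activating protein C, which with protein S destroys factor V, while urokinase bound to its receptor makes plasmin, the protease that dissolves fibrin. Monocytes and macrophages are known sources of tissue factor, factor X, the factor XIII A subunit and the urokinase system outside the liver and the vessel wall.

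Values are FPKM, that is, fragments per kilobase of gene length on a common library scale, and a log2 change is the nanoparticle mean minus the vehicle mean of log2(FPKM + 1). Changes were tested with limma over the 10682 genes that reached 1 FPKM in 3 or more libraries, and a change was called at a Benjamini-Hochberg adjusted p under 0.05. Of the 8 genes, 7 passed that filter and Thbd did not. Recovered totals were 17274534 to 21969574 reads per library. Nanoparticle library 1 stood apart: over tested genes, its correlation with libraries 2 and 3 was 0.942 and 0.928, against 0.990 between those libraries and 0.993 to 0.994 among the vehicle libraries. Changes of the 8 genes that were tested are therefore also given without it. So are those of other clotting genes where leaving it out changed a call, and of some where it did not. The cultures held transcripts of the dendritic cell markers Itgax (442 to 456 FPKM in vehicle and 248 to 398 FPKM with nanoparticles), Cd74 and H2-Ab1, but also of the macrophage markers Adgre1 (62.9 to 68.3 and 132 to 276 FPKM) and C1qa (118 to 167 and 26.1 to 56.5 FPKM). Of 9 tested dendritic cell markers 1 was called higher (Ccl22) and 4 lower (Zbtb46, Ciita, Cd209a and Clec10a). Cd209a passed the filter by its vehicle libraries alone, with 5.17 to 6.21 FPKM there and at most 0.0763 FPKM with nanoparticles. The summed level of the list was 5648 to 6111 FPKM in vehicle and 4191 to 8698 FPKM with nanoparticles. Most of it was Cd74 (3902 to 4264 and 2270 to 5273 FPKM). Mean Ccl22 rose from 154 to 1535 FPKM, and Flt3 stayed under 1 FPKM in all libraries. Of 10 macrophage markers 3 were called higher and 4 lower, with sums of 1125 to 1252 and 1042 to 1233 FPKM. Their part in the changes of the clotting genes was not tested. In bulk RNA, fewer cells of a type and less RNA per cell cannot be told apart.

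Of the 7 genes tested, 4 were called: 3 higher (Procr, F10 and F3) and 1 lower (Plau). Among all tested genes 33.2% were called, 17.0% higher and 16.2% lower. The groups did not overlap in 6 of the 7 tested genes, against 52.1% of all tested genes. Without nanoparticle library 1, 6 of the 7 were called, 4 higher and 2 lower, where 64.8% of all tested genes were called, 34.3% higher and 30.5% lower. With libraries scaled by their total reads, 3 of the 7 were called higher and 2 lower (Plau and F13a1), against 10.4% and 33.8% of all tested genes (44.2% in both directions). The median log2 change of the 7 genes was 0.73, against -0.0010 for all tested genes. That median is the value of Thbs1, which was not called (limma adjusted p = 0.45) and was at -0.091 without nanoparticle library 1. Without that library the medians were 0.83, the value of Plaur, and 0.021.

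**Figure D1:**
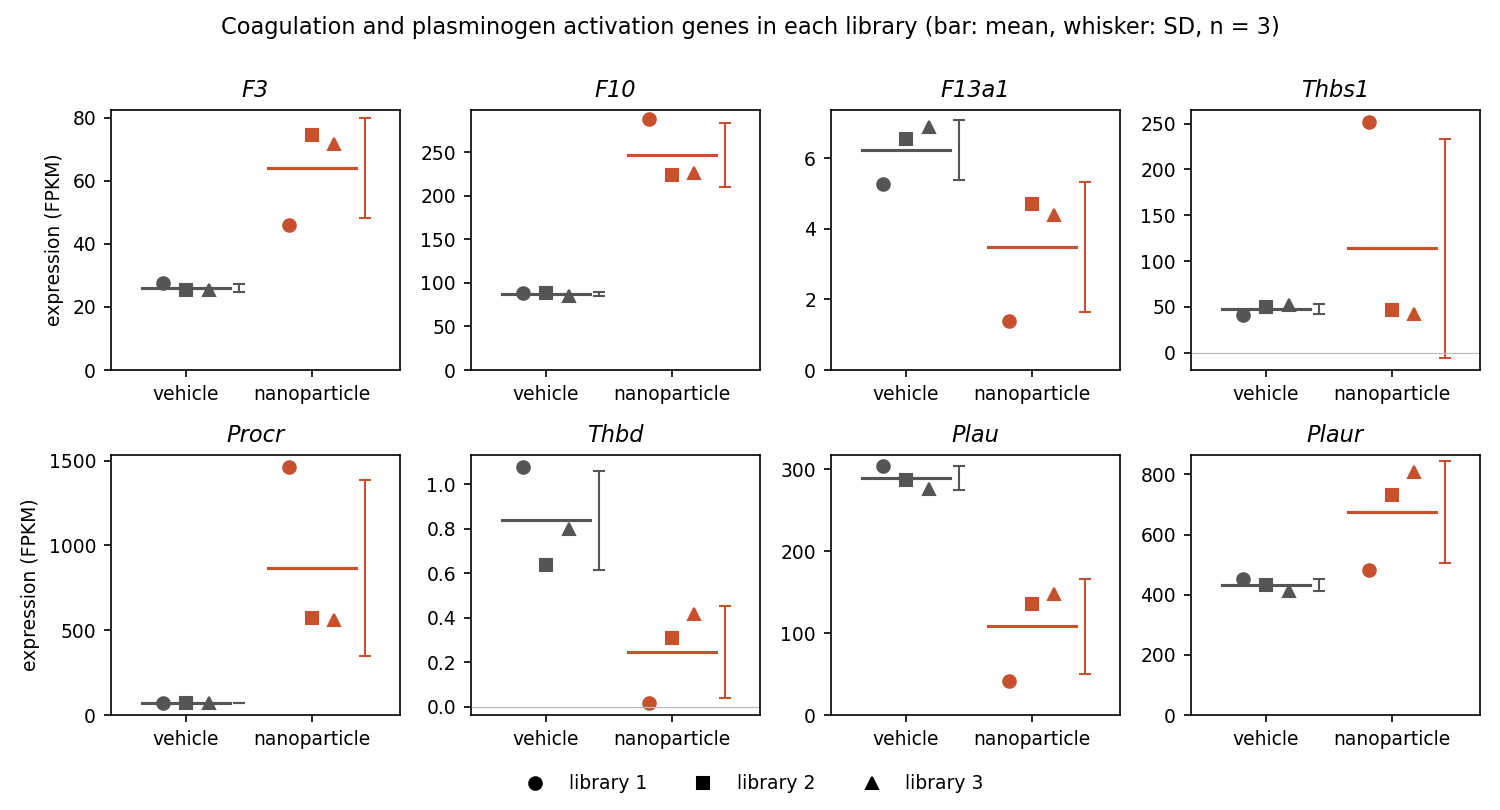
Expression in FPKM (vertical axes, linear, 1 panel per gene) of the 8 genes in the 3 vehicle and 3 nanoparticle libraries, with the mean as a bar and the SD as a whisker. Nanoparticle library 1 (circle) is the highest of its group for Procr, F10 and Thbs1 and the lowest for the other 5 genes.

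F3 encodes tissue factor, the membrane receptor that starts coagulation. It maps to chromosome 3, bases 121723537 to 121735048, plus strand (GENCODE M21, GRCm38, as for all positions here), and like the other 7 genes it is protein coding. F3 was at 27.5, 25.3 and 25.5 FPKM in vehicle libraries 1 to 3 and at 46.0, 74.5 and 71.6 FPKM in nanoparticle libraries 1 to 3. All nanoparticle libraries lay above all vehicle libraries, and library 1 rose least. The mean went from 26.1 ± 1.23 to 64.0 ± 15.7 FPKM (mean ± SD, n = 3 per group), 2.45-fold, which is 1.23 in log2 with an SE of 0.198 (limma adjusted p = 0.0046). It was 1.45 with nanoparticle library 1 left out (limma adjusted p = 5.6e-06). F3 stayed called in every alternative setting tried, with adjusted p from 5.6e-06 to 0.027.

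F10 encodes factor X, the protease precursor at which the tissue factor pathway and the contact pathway meet. The gene occupies bases 13037308 to 13056676 of chromosome 8, plus strand. Vehicle libraries held 89.0, 88.8 and 85.1 FPKM of F10, and nanoparticle libraries held 289, 224 and 227 FPKM. Here too the groups were apart, and library 1 was the highest. The mean rose 2.81-fold, from 87.6 ± 2.21 to 247 ± 36.5 FPKM (mean ± SD, n = 3 per group), which is 1.47 in log2 with an SE of 0.140 (limma adjusted p = 6.6e-04). It was 1.35 without nanoparticle library 1, and F10 too stayed called in every alternative setting, with adjusted p from 3.2e-06 to 0.0076.

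F7, which encodes factor VII, the partner of tissue factor, is the neighbour of F10 on the same strand, from 13026034 to 13035809. Its values were 36.0, 50.3 and 51.4 FPKM in vehicle and 38.1, 49.6 and 59.9 FPKM with nanoparticles. The groups overlapped, and the log2 change was 0.091 (SE 0.216, limma adjusted p = 0.78), or -0.25 with scaling by total reads (limma adjusted p = 0.37). Per library, F10 was at 1.65 to 2.47 times the FPKM of F7 in vehicle and at 3.78 to 7.58 times with nanoparticles. The ratio of F10 to F3, in contrast, was 3.23 to 3.51 in vehicle and 3.01 and 3.17 in nanoparticle libraries 2 and 3, with 6.28 in library 1. Thus the FPKM of F3 and F10 kept nearly the same proportion in the vehicle libraries and in nanoparticle libraries 2 and 3, but not in library 1.

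F13a1 encodes the catalytic A subunit of factor XIII, the transglutaminase that cross-links fibrin, and is known as a transcript of monocytes, macrophages and platelets. Its locus is at bases 36867178 to 37050244 of chromosome 13 (minus strand). F13a1 was at 5.27, 6.56 and 6.89 FPKM in vehicle and at 1.38, 4.72 and 4.40 FPKM with nanoparticles. Each nanoparticle library lay below each vehicle library, by a wide gap for library 1 and a narrow one for the others. The log2 change of -0.78 (SE 0.344) was not called (limma adjusted p = 0.13). Without nanoparticle library 1 the difference was smaller, at -0.37, and was called (limma adjusted p = 0.025). With libraries scaled by total reads it was -1.06 (limma adjusted p = 0.039).

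Plau encodes urokinase, the protease that turns plasminogen into plasmin. It maps to chromosome 14, bases 20836660 to 20843385, plus strand. Plau was at 304, 286 and 276 FPKM in vehicle and at 41.8, 136 and 148 FPKM with nanoparticles. Each nanoparticle library lay far below the vehicle libraries, and library 1 lay lowest. The mean fell from 289 ± 14.4 to 108 ± 58.0 FPKM (mean ± SD, n = 3 per group), which is -1.60 in log2 with an SE of 0.474 (limma adjusted p = 0.043). It was -1.02 with nanoparticle library 1 left out, with a much smaller error (SE 0.0649, limma adjusted p = 3.3e-05). The call with all libraries was close to the threshold: over the alternative settings the adjusted p ran from 3.3e-05 to 0.13, and it was 0.098 with no filter on low values.

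Plaur encodes the urokinase receptor, a lipid-anchored surface protein that holds urokinase at the cell membrane. The gene occupies bases 24462484 to 24475968 of chromosome 7, plus strand, and was the most abundant of the 8 transcripts in vehicle, the 78th of all genes in the table. Plaur was at 452, 432 and 413 FPKM in vehicle and at 483, 732 and 807 FPKM with nanoparticles. The groups did not overlap, although library 1 was only just above the vehicle range. The log2 change of 0.61 (SE 0.219) was not called with all libraries (limma adjusted p = 0.079) and was 0.83 and called without nanoparticle library 1 (limma adjusted p = 8.7e-05). With scaling by total reads it was 0.26 (limma adjusted p = 0.33).

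The balance between receptor and protease transcripts differed between the groups. The FPKM of Plaur were 1.48 to 1.51 times those of Plau in the vehicle libraries, a nearly constant ratio. With nanoparticles the ratio was 11.6, 5.39 and 5.47. A ratio within a library does not depend on the scaling between libraries.

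Procr encodes the endothelial protein C receptor, named for the vessel wall but also made by some hematopoietic cells, which presents protein C to the complex of thrombin and thrombomodulin. Its locus is at bases 155751117 to 155755471 of chromosome 2 (plus strand). Procr was at 73.4, 71.2 and 71.4 FPKM in vehicle and at 1464, 572 and 560.0 FPKM with nanoparticles. This was the widest separation among the 8 genes, with the lowest nanoparticle library far above every vehicle library and library 1 above the rest of its group. The mean went from 72.0 ± 1.21 to 866 ± 519 FPKM (mean ± SD, n = 3 per group), 12.0-fold, which is 3.41 in log2 with an SE of 0.379 (limma adjusted p = 0.0011). The fold was 7.86 without nanoparticle library 1, which is 2.96 in log2 with an SE of 0.0466 (limma adjusted p = 2.2e-07). Procr moved from rank 569 among all genes by mean FPKM in vehicle to rank 68 with nanoparticles. Its adjusted p in the alternative settings ran from 2.2e-07 to 0.0088.

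Thbd encodes thrombomodulin, the thrombin receptor that works beside the protein C receptor. Its locus, at bases 148404466 to 148408188 of the chromosome 2 minus strand, has no intron. Thbd was at 1.08, 0.637 and 0.798 FPKM in vehicle, from 80, 47 and 62 recovered reads, and at 0.0165, 0.308 and 0.418 FPKM with nanoparticles, from 1, 19 and 30 reads. The nanoparticle libraries were all below the vehicle libraries, at levels too low for the filter. In the fit with no filter its log2 change was -0.57 (limma adjusted p = 0.077), where 14.4% of all genes were called. The receptors that act together on protein C thus differed widely in level in these cells.

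Since Procr and Thbd are best known from vessel walls, markers of endothelial cells were looked at beside them. Of the 10 markers listed, 8 were in the table, and 7 of these (Pecam1, Cdh5, Tek, Tie1, Emcn, Esam and Egfl7) were under 1 FPKM in all libraries. The summed FPKM of the list were 1.54 to 1.76 in vehicle and 2.49 to 5.72 with nanoparticles. The exception, Kdr, was at 0.486 to 0.594 FPKM in vehicle and 1.33 to 4.25 FPKM with nanoparticles, and it was called higher (limma adjusted p = 0.049), having passed the filter by its nanoparticle libraries alone. It was not called with no filter (limma adjusted p = 0.11) or with scaling by total reads (limma adjusted p = 0.067). The sums lay below the FPKM of Procr and above those of Thbd in every library, and the part of endothelial RNA in either gene was not tested.

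Thbs1 encodes thrombospondin, a glycoprotein of platelet granules and matrix that also activates latent transforming growth factor beta and binds CD36 and CD47. It maps to chromosome 2, bases 118111876 to 118127133, plus strand. Thbs1 was at 41.6, 49.8 and 52.5 FPKM in vehicle and at 252, 47.1 and 42.5 FPKM with nanoparticles. Only nanoparticle library 1 was high, and the other nanoparticle libraries lay inside the vehicle range. The log2 change was 0.73 (SE 0.666, limma adjusted p = 0.45) with all libraries and -0.091 (SE 0.107, limma adjusted p = 0.48) without library 1, so a single library set both the sign and the size.

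Platelet markers were read beside Thbs1 and F13a1, as platelets carry both. The summed FPKM of the 9 markers in the table were 232 to 259 in vehicle, 152 in nanoparticle library 1, and 618 and 704 in nanoparticle libraries 2 and 3. Of the 5 tested, 0 were called higher and 1 (Vwf) lower. Without nanoparticle library 1, Pf4 (log2 change 1.55, limma adjusted p = 1.8e-05) and Ppbp (log2 change 0.89, limma adjusted p = 4.8e-04) were called higher. In the same fit Treml1 (log2 change -0.55, limma adjusted p = 0.0027) and Vwf (log2 change -0.92, limma adjusted p = 1.5e-04) were called lower. Nearly all of the sum was Pf4, a chemokine of platelet granules that macrophages also express, and Ppbp. The receptor genes Gp1ba, Gp6 and Itga2b stayed under 1 FPKM in all libraries. Within that low range Gp6 had 0, 0 and 0 recovered reads in vehicle and 55, 49 and 62 with nanoparticles. Gp1ba had 14, 27 and 14 in vehicle and 0, 9 and 1 with nanoparticles. In the fit with no filter Gp6 was called higher (limma adjusted p = 8.5e-04) and Gp1ba was not called (limma adjusted p = 0.12). The library with the most Thbs1 had the lowest sum, and it also had the least F13a1. Treml1, a platelet receptor gene, was at 3.40, 3.35 and 3.01 FPKM in vehicle and at 0.437, 1.72 and 2.11 FPKM with nanoparticles. Pf4 was at 191, 214 and 200 FPKM in vehicle and at 140, 547 and 641 FPKM with nanoparticles. These markers went in different directions: Treml1 was lower in each nanoparticle library, while Pf4 was lower in library 1 and higher in libraries 2 and 3. The part of platelet RNA in the values of Thbs1 and F13a1 was not tested.

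**Figure D2:**
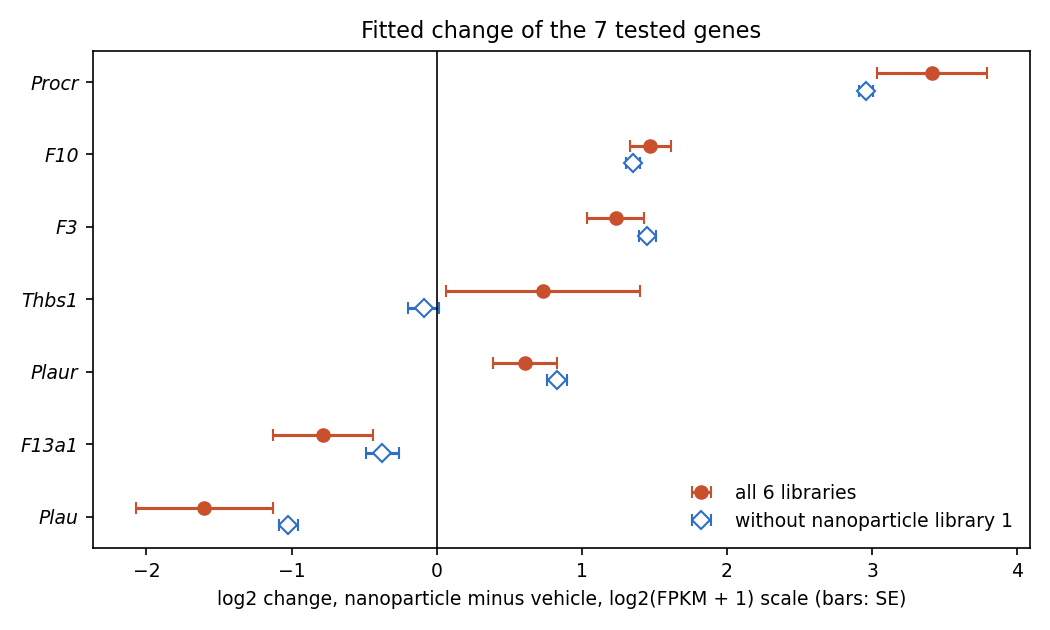
Fitted log2 change (horizontal axis, nanoparticle minus vehicle on the log2(FPKM + 1) scale, bars are SE) of the 7 tested genes, with all 6 libraries (filled circles) and without nanoparticle library 1 (open diamonds). Leaving out that library moved Thbs1 from 0.73 to -0.091 and narrowed the SE of every gene.

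By level per gene length, the vehicle libraries gave the order Plaur, Plau, F10, Procr, Thbs1, F3, F13a1 and Thbd, and no neighbours in it overlapped. With nanoparticles the order of means was Procr, Plaur, F10, Thbs1, Plau, F3, F13a1 and Thbd. There the ranges of Procr and Plaur overlapped, as did those of F10 and Thbs1, Thbs1 and Plau, and Plau and F3. Plau was at 10.8 to 11.3 times the FPKM of F3 in vehicle and at 0.909, 1.82 and 2.06 times in the nanoparticle libraries.

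How far nanoparticle library 1 lay from libraries 2 and 3 differed by gene. On the log2(FPKM + 1) scale, 4 of the 7 tested genes lay at least 2-fold from the mean of libraries 2 and 3, against 11.8% of all tested genes. Thbs1 (2.47) and Procr (1.37) were higher in library 1, and Plau (-1.74) and F13a1 (-1.22) were lower. F10 was 0.35 higher there, while F3 (-0.66) and Plaur (-0.67) were lower there. For Procr, F10, Plau and F13a1 library 1 thus moved further in the direction of its group, and for F3 and Plaur it moved less.

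**Figure D3:**
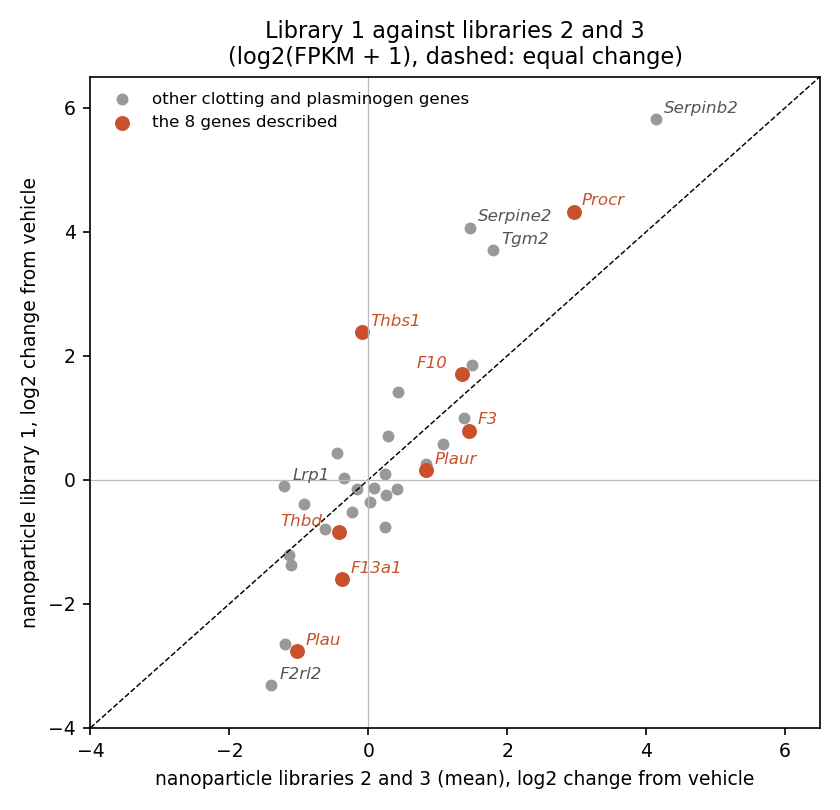
Log2 change from the vehicle mean on the log2(FPKM + 1) scale in nanoparticle library 1 (vertical axis) against the mean of nanoparticle libraries 2 and 3 (horizontal axis), for the 8 genes (orange) and the 26 other tested clotting and plasminogen genes (grey). Thbs1 lies near 0 on the horizontal axis and far above the dashed line of equal change, and Plau and F13a1 lie below it.

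The promoters were searched for short motifs of known transcription factors, and those of F3, Plaur and Procr are shown because each holds a match to the AP-1 motif TGANTCA, which reads the same on both strands. The windows are those of RefSeq on GRCm38.p6, 250 bases before to 50 after each start, and 5 of the 8 genes had one. Printed are the bases before the gene start, 5′ to 3′ on the plus strand, with the AP-1 matches in capitals.
F3 (chr3:121723287-121723536): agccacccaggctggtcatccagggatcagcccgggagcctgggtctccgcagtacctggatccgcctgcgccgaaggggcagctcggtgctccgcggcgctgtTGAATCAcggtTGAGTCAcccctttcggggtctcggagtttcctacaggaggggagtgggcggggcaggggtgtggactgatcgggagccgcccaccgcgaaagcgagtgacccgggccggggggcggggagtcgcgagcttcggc
Plaur (chr7:24462233-24462482): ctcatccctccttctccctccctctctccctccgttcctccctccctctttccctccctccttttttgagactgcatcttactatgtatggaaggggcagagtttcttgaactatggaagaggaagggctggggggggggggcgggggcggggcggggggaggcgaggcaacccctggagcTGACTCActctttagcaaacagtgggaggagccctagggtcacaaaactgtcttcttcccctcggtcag
Procr (chr2:155750967-155751116): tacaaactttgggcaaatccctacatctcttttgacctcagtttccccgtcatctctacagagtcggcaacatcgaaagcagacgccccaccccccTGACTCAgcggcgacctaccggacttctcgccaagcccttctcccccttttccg
The F3 matches, TGAATCA and TGAGTCA, begin 146 and 135 bases before the start, the Plaur match TGACTCA 69 bases before it, and the Procr match TGACTCA 154 bases before the RefSeq start. Among all 32851 windows of the table, 7.81% hold this motif. Of the genes with a match, F3 and Procr were called higher and Plaur was not called with all libraries. F10, which was called higher, and F13a1, which was not called, had none in their windows.

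The other motifs were rarer among these genes. The kappaB motif, taken as GGG and TTCC with 3 bases between them on either strand, is in 5.56% of all windows and was found downstream of the start in Plaur and in 1 of the 2 F13a1 windows. The EGR motif GCGGGGGCG (CGCCCCCGC on the other strand), held by 2.91% of windows, was found in Plaur 109 bases before the start. The E box CACGTG, held by 7.15% of windows, was in none of them. A match is a description of these letters and not a measured binding site. Sites that differ from a pattern by a letter were not searched for, so a window without a match may still hold a site.

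The rest of the pathway was read from a list of 60 further genes in 7 roles. Of these, 45 were in the table and 26 passed the filter. The other 15, plasminogen (Plg), prothrombin (F2), protein C (Proc) and the fibrinogen chains among them, had no row and were not analysed here. In all, 13 of the 26 were called, against 33.2% of all tested genes, 7 higher and 6 lower. F5 and Serpine2 passed the filter through a single group, being under 1 FPKM in every library of the other, and of the 24 genes left 11 were called. The median log2 change over the 26 genes was -0.040, and 0.16 without nanoparticle library 1. With scaling by total reads 6 were called higher and 9 lower, where the shares over all tested genes were 10.4% and 33.8%. Without nanoparticle library 1, 21 of the 26 were called, including all of those 13, 11 higher and 10 lower, against 64.8% of all tested genes. Leaving out 1 vehicle library gave 6 to 8 calls. Over all 10682 tested genes the count fell as well, from 3550 to between 2141 and 2226. Of the 13, F5, Serpinb2, Cd47, Gas6, Vkorc1l1 and Plscr1 were called in every setting in which they were tested. Without 1 vehicle library at a time, the adjusted p was 0.064 to 0.073 for Vwf, 0.065 to 0.073 for Pros1, 0.12 for Serpine2, 0.10 to 0.14 for Plgrkt and 0.079 to 0.081 for F2rl2. For Tgm2 and Anxa5 it reached at most 0.055 and 0.051. Without nanoparticle library 2 it was 0.062 for Vwf, 0.056 for Serpine2 and 0.12 for Plgrkt, and without library 3 it was 0.092 for Plgrkt. With no filter it was 0.051 for Pros1, 0.10 for Serpine2, 0.077 for Plgrkt and 0.063 for F2rl2.

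Among clotting factors, F5 and Vwf were lower and F7 was not called. F5, the cofactor of factor X, was at 2.84, 1.99 and 1.81 FPKM in vehicle and at 0.223, 0.464 and 0.496 FPKM with nanoparticles (log2 change -1.20 ± 0.157 SE, limma adjusted p = 0.0021), so that it passed the filter by its vehicle libraries alone. Vwf, which tethers platelets to the vessel wall and carries factor VIII, went from 7.51 ± 0.252 to 4.17 ± 1.19 FPKM (mean ± SD, n = 3 per group, limma adjusted p = 0.018).

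Of the anticoagulants, Pros1, the cofactor of activated protein C, was called lower, and Tfpi, the inhibitor of tissue factor with factor VII, was not called. Pros1 was at 27.3, 24.4 and 24.6 FPKM in vehicle and at 3.24, 11.4 and 9.75 FPKM with nanoparticles (log2 change -1.68 ± 0.397 SE, limma adjusted p = 0.020), with -1.20 when nanoparticle library 1 was left out. Tfpi was at 3.48 to 3.62 FPKM in vehicle and 3.87 to 4.72 FPKM with nanoparticles (log2 change 0.19, limma adjusted p = 0.20). Its log2 change was 0.24 and called higher with nanoparticle library 1 left out (limma adjusted p = 0.042), and -0.088 with scaling by total reads. F3 was at 7.31 ± 0.515 times the FPKM of Tfpi in vehicle (mean ± SD, n = 3) and at 11.9, 15.8 and 17.6 times with nanoparticles.

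Of the 7 tested genes of the plasminogen system 3 were called higher and 0 lower, beside 17.0% and 16.2% of all tested genes. Without nanoparticle library 1 the counts were 5 and 1, beside 34.3% and 30.5% of all tested genes. With scaling by total reads they were 2 and 1, beside 10.4% and 33.8%. Serpinb2, an inhibitor of urokinase made by activated myeloid cells, was at 7.24 ± 2.01 FPKM in vehicle (mean ± SD, n = 3) and at 454, 149 and 134 FPKM with nanoparticles. Its log2 change was 4.70 (SE 0.487, limma adjusted p = 8.9e-04), and 4.14 without nanoparticle library 1. Serpine2, an inhibitor of thrombin and urokinase, was at 0.743 to 0.769 FPKM in vehicle and at 28.5, 4.11 and 3.60 FPKM with nanoparticles (log2 change 2.33 ± 0.696 SE, limma adjusted p = 0.044), and the log2 change without library 1 was 1.46. It passed the filter by its nanoparticle libraries alone. Plgrkt, a plasminogen receptor of the cell membrane, rose from 14.7 ± 1.03 to 23.9 ± 5.55 FPKM (mean ± SD, n = 3 per group, log2 change 0.64, limma adjusted p = 0.039). Its nanoparticle libraries 1 to 3 held 17.7, 25.8 and 28.3 FPKM. With scaling by total reads Plgrkt was not called (log2 change 0.31, limma adjusted p = 0.19). In each library Serpinb2 was at 0.0164 to 0.0323 times the FPKM of Plau in vehicle, and at 10.9, 1.10 and 0.905 times with nanoparticles.

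Plat, chosen here after its values were seen, encodes the tissue-type plasminogen activator and was below the filter. Plat had 1, 0 and 0 recovered reads in vehicle and 85, 59 and 64 with nanoparticles. In the fit with no filter Plat was called higher (limma adjusted p = 0.0040), and it stayed at low levels beside Plau. Among the other genes of the wider list below the filter, Tfpi2 (limma adjusted p = 0.030) and Thbs4 (0.0052) were called higher in that fit. Proz (limma adjusted p = 0.041) and F2rl3 (0.027) were called lower. Of all genes in that fit 14.4% were called.

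The remaining plasminogen genes, S100a10, Anxa2, Eno1 and Lrp1, were not called with all libraries. With nanoparticle library 1 left out, Anxa2 (log2 change 0.42, limma adjusted p = 0.0011) and Eno1 (log2 change 0.28, limma adjusted p = 0.0023) were called higher. The log2 change of S100a10 turned from -0.092 (limma adjusted p = 0.84) to 0.24 (limma adjusted p = 0.060), not called either way. Anxa2 and S100a10, which together bind plasminogen and its activators at the membrane, were abundant, at 242 to 254 and 299 to 319 FPKM in vehicle and at 224 to 350 and 183 to 409 FPKM with nanoparticles. Lrp1, which clears complexes of urokinase and its inhibitors, was at 51.4 to 57.9 FPKM in vehicle and at 49.9, 24.3 and 20.8 FPKM with nanoparticles (log2 change -0.85, limma adjusted p = 0.086). It was called without nanoparticle library 1, at a log2 change of -1.22 (limma adjusted p = 5.3e-05), and with scaling by total reads, at -1.18 (limma adjusted p = 0.027). Eno1 has near-identical copies in the genome, so its value is uncertain.

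Of the protease-activated receptors, which sense thrombin and related proteases, F2rl2 alone passed the filter. It was at 25.3, 25.4 and 24.8 FPKM in vehicle and at 1.64, 8.57 and 9.31 FPKM with nanoparticles (log2 change -2.03 ± 0.514 SE, limma adjusted p = 0.025), or -1.40 when library 1 of the nanoparticle group was left out. Of the thrombospondin receptors, Cd47 was called higher, at 14.1 to 14.2 FPKM in vehicle and 41.0 to 53.3 FPKM with nanoparticles (log2 change 1.61, limma adjusted p = 3.3e-04). Cd36, Itgav and Itgb3 were not called with all libraries. When nanoparticle library 1 was left out, Itgav was called higher (log2 change 0.43, limma adjusted p = 0.0054) and Itgb3 lower (log2 change -0.44, limma adjusted p = 0.0046).

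In the group of vitamin K and transglutaminase genes, Tgm2 rose and Gas6 and Vkorc1l1 fell. Tgm2, the tissue counterpart of factor XIII, was at 24.6, 19.0 and 18.9 FPKM in vehicle and at 281, 75.3 and 73.5 FPKM with nanoparticles (log2 change 2.43 ± 0.521 SE, limma adjusted p = 0.014). Without nanoparticle library 1 it was 1.80. Gas6, a vitamin K dependent protein related to protein S, went from 5.33 ± 2.18 to 1.73 ± 0.278 FPKM (mean ± SD, n = 3 per group, limma adjusted p = 0.012), where vehicle library 1 was high, at 7.82 FPKM against 3.76 and 4.40 FPKM. Vkorc1l1, an enzyme of vitamin K recycling, went from 7.76 ± 0.820 to 4.46 ± 0.374 FPKM (mean ± SD, n = 3 per group, limma adjusted p = 0.0049).

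Among genes of the phospholipid surface on which clotting complexes assemble, Plscr1 and Anxa5 rose, and Ano6 and P4hb were not called with all libraries. Without nanoparticle library 1, Ano6 (log2 change -0.35, limma adjusted p = 0.0094) and P4hb (log2 change -0.23, limma adjusted p = 0.0045) were called lower, as they were with scaling by total reads (limma adjusted p = 0.031 and 0.0055). Anxa5, which covers acidic phospholipid and blocks clotting on it, was at 304 to 307 FPKM in vehicle and at 458, 627 and 663 FPKM with nanoparticles (log2 change 0.91 ± 0.177 SE, limma adjusted p = 0.0093), or 0.57 with scaling by total reads. Plscr1, a phospholipid scramblase family member that is also induced by interferon, went from 8.54 ± 0.953 to 21.9 ± 3.58 FPKM (mean ± SD, n = 3 per group), with no overlap (log2 change 1.25, limma adjusted p = 0.0015).

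**Figure D4:**
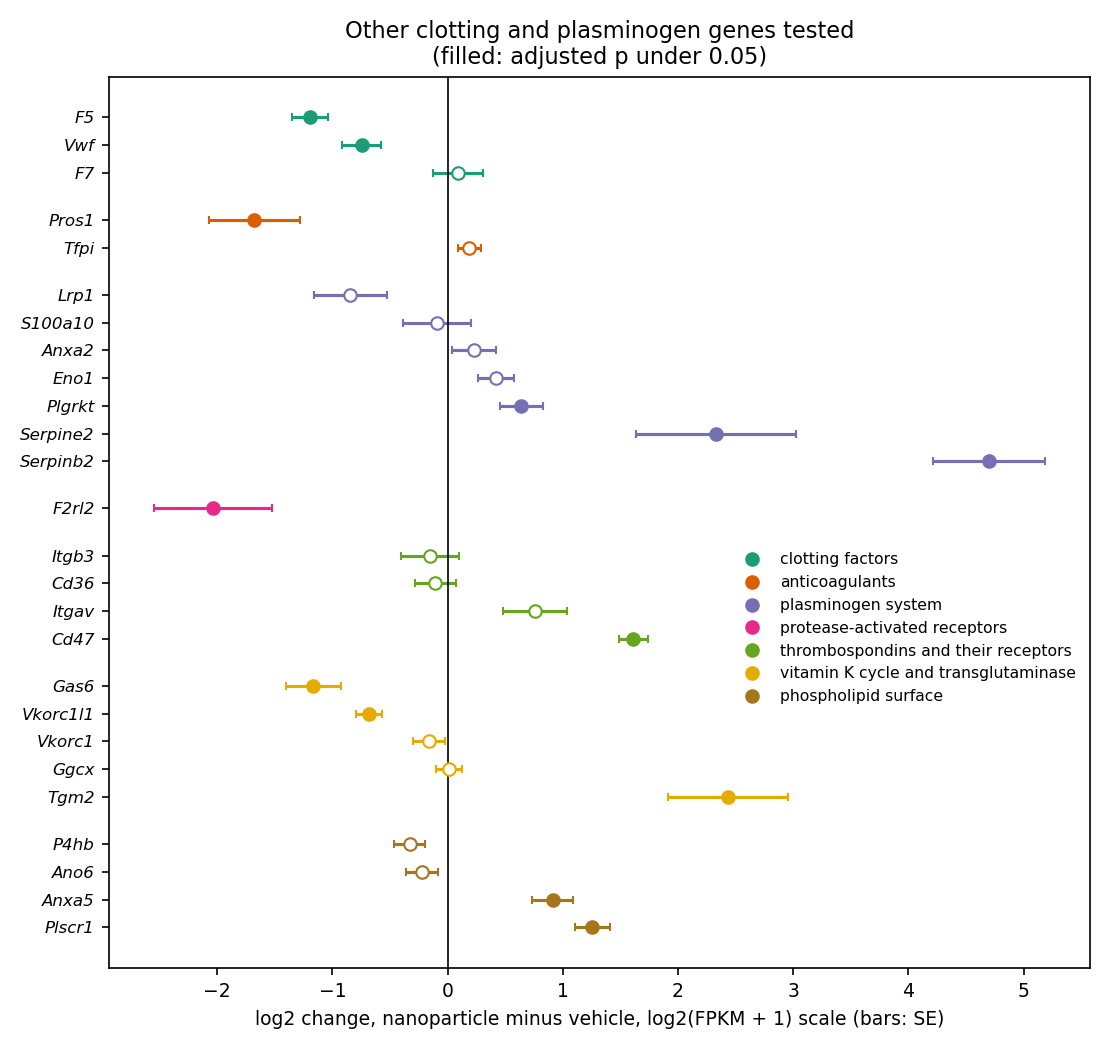
Fitted log2 change (horizontal axis, nanoparticle minus vehicle on the log2(FPKM + 1) scale, bars are SE) of the 26 other clotting and plasminogen genes tested, grouped by role. Filled points passed an adjusted p of 0.05, 7 of them to the right of 0 and 6 to the left, with Serpinb2 at 4.70 and F2rl2 at -2.03 as the extremes.

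For each of the 7 tested genes, the genes with the most similar profile were found among 6647 tested genes with a mean of at least 5 FPKM in one group. The measure was the root mean square difference over the 6 libraries of log2(FPKM + 1) after subtraction of the vehicle mean. Alas1 (0.050) and Tmem39a (0.066) were nearest to F3, and B2m (0.059) and Usb1 (0.071) to F10. Slfn8 (0.069) and Phf11d (0.13) were nearest to Procr, and Eloc (0.034) and Uqcrfs1 (0.039) to Plaur. Tspan14 (0.053) and Cd300lb (0.075) were nearest to Plau, and Fmnl1 (0.064) and Ppm1m (0.11) to F13a1. Thbs1 had the least close neighbours, Dnajc1 (0.16) and Gbp8 (0.18), which were likewise high in nanoparticle library 1 alone, at 27.5 and 19.6 FPKM.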

How the data were processed

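RNA was sequenced from 3 vehicle and 3 nanoparticle libraries, grouped by their titles, each made from 1 µg of total RNA with an NEBNext Ultra II kit, per the labels' protocols. The submitters' processing notes name CASAVA, STAR 2.5, HTSeq, edgeR 3.16.5, DESeq2 and the builds mm10 and hg19. How strand and reads shared between similar genes were handled is not given in the sources used here. The authors deposited 2 tables with 140388 identical values, treated as FPKM, a unit inferred from the values. Multiplied by GENCODE M21 exon length and 1 scale per library, 95.8% to 96.1% of values above 0 became whole reads (within 0.01). Another length was found for 521 of 526 other genes. The scales matched median-of-ratios size factors within 0.062%, which assumes that most genes do not change: scaling by total reads moved the median log2 change from -0.0010 to -0.28. Counting error follows from 17274534 to 21969574 recovered reads per library.

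Genes that reached 1 FPKM in 3 or more libraries were tested with limma 3.58.1 (R 4.3.3) on log2(FPKM + 1). The model had group as the single term and a mean-variance trend, and was first checked on simulated data. Those data had the same spread in both groups and no library that stood apart, so the check does not cover nanoparticle library 1. The log2(FPKM + 1) scale understates changes of low genes. The design allowed for raw counts, which these values are not. Summaries used Python 3.11.15, pandas 2.3.3, numpy 2.4.6 and matplotlib 3.10.9. Alternatives were total scaling, another pseudocount (0.1), no filter, a filter of 5 FPKM, no trend, limma-voom on recovered reads, a replicate block and leaving out each library. The genes, lists and tests were chosen with earlier results of these data known. Named were the 8 genes, up to 3 called genes of each role of the wider list with the largest change, and 2 genes of most similar profile per tested gene. Other genes of the wider list that are named, F7, Tfpi and those not called among them, were chosen after their values were seen. Marker lists of 8 cell types were fixed likewise. Beside those in the text, summed FPKM in vehicle and nanoparticle libraries were 266 to 299 and 232 to 306 for neutrophils. Of 4 tested neutrophil markers, S100a8 and Lcn2 were called higher and Mmp8, most of the sum in vehicle, lower. Lcn2 passed the filter by its nanoparticle libraries alone (0.146 to 0.346 FPKM in vehicle and 46.4 to 52.5 FPKM with nanoparticles). For mast cells and basophils the sums were 2.50 to 4.55 and 0.898 to 3.61, for fibroblasts 1.84 to 2.86 and 3.25 to 5.95. For lymphocytes they were 0.115 to 0.377 and 0.0382 to 0.349. Replicates differed by more than counting error, with a chi-square per degree of freedom of 2.86 to 5.36 between vehicle and 11.8 to 233 between nanoparticle libraries. That measure does not tell separate cultures from separate preparations of the same culture.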

Additional observations from a re-analysis of the deposited data

How the results depend on the processing

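With 1 library left out at a time, the count of genes past the threshold ran from 2141 to 6923 (3550 with all libraries), of the wider pathway list from 6 to 21 (13), and of the 8 genes from 3 to 6 (4). In the same fits the log2 change ran from -1.92 to -1.02 for Plau, from -1.01 to -0.37 for F13a1, from 0.46 to 0.83 for Plaur and from -0.091 to 1.18 for Thbs1, whose negative value came without nanoparticle library 1. Plau lost its call with no filter (log2 change -1.60, limma adjusted p = 0.098), without each vehicle library (adjusted p = 0.11 to 0.13) and without nanoparticle library 2 (adjusted p = 0.057). With no filter, more genes enter the adjustment, and a left-out library lowers the number of samples. F13a1 gained a call with scaling by total reads (log2 change -1.06). Plaur and F13a1 gained one without nanoparticle library 1. Thbd moved to -1.66 with a pseudocount of 0.1, which weighs low values more, and was not tested under total scaling, the stricter filter, no trend, limma-voom or the block. With the replicate number as a replicate block, 2785 genes passed, and Plau had a log2 change of -1.60 at an adjusted p of 0.0502. The numbers were not taken to pair the libraries, since the deviations of same-numbered libraries correlated at 0.065, 0.11 and -0.058 across genes. F3, F10 and Procr kept direction and call in all of these settings. Among the 8 genes depth limits Thbd, at 1 to 80 reads per library.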
